A study of Homo sapiens with 12 samples.

Results

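The exocyst is a protein complex of 8 subunits, and the 9 human genes that encode them were followed here in RNA-Seq of HEK293T cells. The members were taken by gene symbol from the deposited tables (EXOC1, EXOC2, EXOC3, EXOC4, EXOC5, EXOC6, EXOC6B, EXOC7 and EXOC8), which gave 9 of the 58735 genes in the count table, and all 9 passed the filter on low counts with 17729 genes in all. EXOC6 and EXOC6B are paralogs that encode the same subunit.

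The exocyst holds secretory vesicles that come from the Golgi or from recycling endosomes at the plasma membrane, before SNARE proteins fuse the membranes. Small GTPases of the Ral, Rab and Arf families recruit it, and subunits of it bind the lipid PIP2 in the membrane. It is needed for the growth of primary cilia, for cell polarity and for the delivery of transporters and receptors to the surface. EXOC4 was followed separately from its partners because the study examined the EXOC4 protein as a candidate RNA binder.

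HEK293T is a transformed line from human embryonic kidney. The cells were labelled as wild type, poly-A RNA was sequenced, and 3 libraries were deposited for each of 4 treatments, DMSO, CEP, 4SU, and CEP together with 4SU (CEP+4SU). CEP is the clickable electrophilic purine AHL-Pu-1, a probe that reacts with cysteines and was used at 25 µM for 1 h. 4SU is 4-thiouridine, a uridine analog that cells build into new RNA, given at 100 µM for 16 h. The protocol given with each of the 12 libraries describes irradiation at 312 nm before CEP was added in medium without serum, and it prints the CEP dose as 25 mM where the study's methods have 25 µM. It does not say whether the DMSO and CEP cells were irradiated. The labels do not say whether the libraries of a group came from separate cultures, while the study calls the experiments it shows with its RNA-Seq biologically independent. The p-values set differences between groups against the spread between these libraries.

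Library depth was 16569114 to 24644734 counts on genes. CEP replicate 2 and CEP+4SU replicate 2 stood apart, with 22230 and 22627 genes that had at least 1 count against 24376 or more in the other 10, and the log2 fold changes of the members for CEP are also given without them. Of the markers for the labelled line, 5 of 7 nephric lineage genes and 4 of 4 neuronal filament genes had a mean of at least 1 FPKM (fragments scaled by gene length and library size), and 0 of 8 genes of differentiated kidney did, with 2 of those 8 at 0 in every library.

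The members differ widely in their genes. EXOC4 (ENSG00000131558) spans 813.5 kb at chr7:133253073-134066589 on the plus strand of GRCh38 and has 9466 exonic bases, so that most of the gene is intron. EXOC6B (ENSG00000144036) spans 650.1 kb at chr2:72175984-72826041 on the minus strand. EXOC6 (ENSG00000138190) and EXOC2 (ENSG00000112685) span 224.8 kb and 208.0 kb. EXOC5 (ENSG00000070367), EXOC1 (ENSG00000090989), EXOC7 (ENSG00000182473) and EXOC3 (ENSG00000180104) span 68.5, 51.4, 40.6 and 28.8 kb. EXOC8 (ENSG00000116903) is a single exon of 5100 bases at chr1:231332753-231337852 on the minus strand. The GC content of their transcripts ran from 36.4% for EXOC5 to 58.0% for EXOC3, beside a median of 49.3% over the genes tested. RefSeq promoter windows (GRCh38.p14, 300 bases each) were found for 8 of the 9 genes, 11 windows in all, with a median of 24 CpG dinucleotides against 14 over all 35116 windows.

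The stretch of EXOC4 that the study deleted to test RNA binding surrounds cysteine C957 and is shown because it is the site that ties this gene to the probe. It lies in the last exon, 18 of 18, of transcript ENST00000253861.4 (GENCODE 29) at chr7:134064442-134064504 on the plus strand, and covers codons 947 to 967 of 974, with the cysteine codon in capitals.
EXOC4 coding stretch: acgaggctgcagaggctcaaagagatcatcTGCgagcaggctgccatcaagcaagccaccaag

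The counts bear on the mRNA of EXOC4 and say nothing of this protein site.

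The 9 genes share almost no sequence over the length of a read. No stretch of 50 bases was shared between the GENCODE 29 transcripts of any 2 of the 9 genes, in either orientation, and the longest run in common between EXOC6 and EXOC6B was 21 bases. That run is shown in capitals with 20 coding bases on each side, since it is the closest match between the paralogs whose levels are compared below.
EXOC6: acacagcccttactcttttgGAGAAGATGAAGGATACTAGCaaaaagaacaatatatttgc
EXOC6B: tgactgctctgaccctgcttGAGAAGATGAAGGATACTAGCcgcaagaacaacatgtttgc

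Of the pseudogenes, EXOC5P1 shared 476 stretches of 50 bases with EXOC5, 3.73% of those of EXOC5, and received 0 to 15 counts per library, and EXOC7P1 shared 0 with EXOC7 and received 0. Strand use in counting is not stated, so reads from places where a member and a gene on the other strand overlap cannot be assigned with certainty. The spans of the members, introns included, overlap 15 genes on the other strand, of which 5 had a median of at least 10 counts. EXOC8 shares 749 bases with SPRTN, EXOC5 shares 100 bases with AP5M1, EXOC3 shares 3 bases with the antisense RNA EXOC3-AS1 at its start and 1480 bases with SLC9A3 at its end, and EXOC7 shares 1362 bases with AC018665.1, which had a median of 43 counts. The other 10 had a median of 8 counts or fewer.

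All 9 genes were expressed in DMSO, at levels within 3.32-fold of each other. On the deposited FPKM, which divides by the length of all exons of a gene, the order of DMSO means was EXOC2 at 16.0 ± 0.482 (SD, n = 3), EXOC8 at 14.1 ± 0.641, EXOC5 at 9.89 ± 0.328, EXOC7 at 8.76 ± 1.05, EXOC1 at 8.18 ± 0.316, EXOC4 at 7.0 ± 0.267, EXOC3 at 6.70 ± 0.255, EXOC6 at 6.35 ± 0.232 and EXOC6B at 4.80 ± 0.198. The median of the 9 was 8.18 FPKM, against 3.72 for all genes tested. In DMSO, the libraries of EXOC5 and EXOC7 overlapped, as did those of EXOC7 and EXOC1, of EXOC4 and EXOC3, and of EXOC3 and EXOC6. The order of these neighbours in DMSO was thus not clear of their spread. Over the 12 libraries, EXOC5 was above EXOC7 in 11, EXOC4 above EXOC3 in 8, EXOC7 above EXOC1 in 3 and EXOC3 above EXOC6 in 3. EXOC2 was above EXOC8, and EXOC6 above EXOC6B, in 12 of 12 libraries without overlap. The order depends on the length used. Per kilobase of the longest coding transcript, EXOC3 came first with 19.6 CPM per kb (CPM being counts scaled to the TMM-adjusted size of each library) and EXOC6B stayed last with 8.34, and the fold between first and last was 2.35.

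The comparisons with DMSO ask what the probe and the labelling nucleoside did to the mRNA levels in the cells. No member passed the threshold of 0.05 on adjusted p-values (edgeR quasi-likelihood test, Benjamini-Hochberg over all genes tested) in any of the 6 comparisons fitted. For CEP against DMSO this was 0 of 9, where 0.0564% of the genes tested were called. For 4SU against DMSO it was 0 of 9 beside 0.00564%, and for CEP+4SU against DMSO it was 0 of 9 beside 1.64%. The 95% intervals of all 27 log2 fold changes against DMSO lay between -0.44 and 0.51. DESeq2 called 0, 0 and 1 members in the same 3 comparisons, the 1 being EXOC2 in CEP+4SU. Over all genes it called 253, 21 and 1164. In bulk RNA, fewer cells that express a gene and less RNA per cell cannot be told apart.

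EXOC4 was the member with the lowest value after 4SU relative to DMSO. Its CPM values were 69.5, 64.8 and 66.0 in DMSO and 57.4, 55.5 and 57.5 in 4SU. They were 65.3, 80.1 and 73.8 in CEP and 54.7, 71.6 and 60.6 in CEP+4SU. The 3 libraries of 4SU were all below the 3 of DMSO, whereas CEP and CEP+4SU each overlapped DMSO. The log2 fold change was -0.23 for 4SU against DMSO (SE 0.099, 95% interval -0.44 to -0.03), with an unadjusted p of 0.0296 and an adjusted p of 0.744. EXOC4 was 1 of 9 members at an unadjusted p under 0.05 and lower in this comparison, where 3.72% of all genes were, and 0 of 9 were higher where 2.78% were. Non-overlap with DMSO on the lower side held for 2 members, EXOC3 and EXOC4, beside 10.3% of genes, and on the higher side for 0 beside 7.58%.

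Averaging the effect of 4SU over cells with and without CEP uses all 12 libraries. This gave EXOC4 a log2 fold change of -0.23 (SE 0.070, 95% interval -0.38 to -0.08), a level 14.8% lower, with an unadjusted p of 0.0037 and an adjusted p of 0.142. EXOC4 thus stood at rank 461 of the 17729 genes by p. In this comparison 0 of 9 members were called beside 0.558% of genes, and DESeq2 called 0 as well, with an adjusted p of 0.0745 for EXOC4. EXOC4 was the only member at an unadjusted p under 0.05, and it was lower, as were 6.95% of genes, while 0 members were higher beside 5.66%. Without CEP+4SU replicate 2, the library in which EXOC4 was highest among the 4SU-labelled ones, the log2 fold change was -0.29 and passed the threshold (adjusted p = 0.0437). Without both libraries that stood apart, an alternative that was not planned, it was -0.25 (adjusted p = 0.0416). With a trend on GC content removed from each library it was -0.23 (adjusted p = 0.0179). There the value was as before, and its SE was 0.054 against 0.070. In each of these 3 fits more genes passed over all genes tested, up to 658 with the GC trend removed against 99 as fitted. The calls of EXOC4 thus came with more calls at large. Over all 23 alternatives the log2 fold change of EXOC4 lay between -0.29 and -0.19, and 3 of them called it.

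With CEP the value of EXOC4 had the other sign. Against DMSO it was 0.13 on the log2 scale (95% interval -0.08 to 0.34, adjusted p = 0.480), and averaged over 4SU it was also 0.13 (-0.01 to 0.28, adjusted p = 0.254). For CEP+4SU against DMSO it was -0.10 (-0.31 to 0.11, adjusted p = 0.590). The highest value of EXOC4 in any library was that of CEP replicate 2, and without the 2 libraries that stood apart the value was 0.06 for CEP, 0.04 for CEP averaged and -0.21 for CEP+4SU. Single libraries set its size, since without CEP replicate 1 the value for CEP was 0.22 and without CEP+4SU replicate 1 that for CEP+4SU was -0.028.

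**Figure D1:**
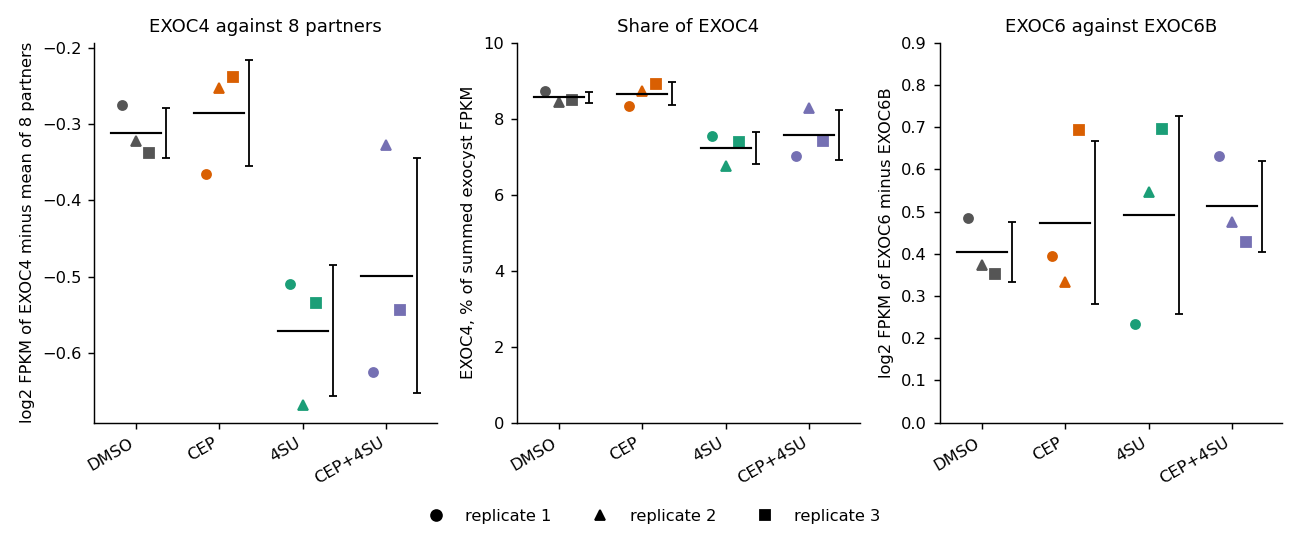
Left, log2 FPKM of EXOC4 minus the mean log2 FPKM of its 8 partners (y axis not from 0); centre, EXOC4 as a percentage of the summed FPKM of the 9 genes; right, log2 FPKM of EXOC6 minus that of EXOC6B. Points are libraries with symbols for replicate number, lines are means and bars the SD of 3 libraries; EXOC4 made up 6.75% to 7.55% of the sum in 4SU against 8.44% to 8.74% in DMSO.

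EXOC4 was also lower after 4SU relative to its partners as a group. The log2 FPKM of EXOC4 minus the mean of its 8 partners was -0.28, -0.32 and -0.34 in DMSO and -0.51, -0.67 and -0.53 in 4SU. It was -0.37, -0.25 and -0.24 in CEP and -0.62, -0.33 and -0.54 in CEP+4SU. The 4SU libraries lay below every DMSO and every CEP library, and of the CEP+4SU libraries only replicate 2 reached into their range. The mean over the 6 libraries with 4SU was 0.24 lower on the log2 scale than over the 6 without, and the mean with CEP was 0.05 above that without. Against EXOC1, EXOC2 and EXOC3 alone, the other subunits of the same subcomplex, the difference with 4SU was -0.25. As a share of the summed FPKM of the 9 genes, EXOC4 was 8.44% to 8.74% in DMSO, 8.33% to 8.91% in CEP, 6.75% to 7.55% in 4SU and 7.01% to 8.29% in CEP+4SU. No test is given for these values, since they are a score over chosen members.

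The span of EXOC6B is the widest after that of EXOC4. Whether span bears on the values with 4SU was not tested. EXOC6B ranged from 47.9 to 51.9 CPM in DMSO and from 48.7 to 54.2 in 4SU, and its log2 fold change averaged over CEP was 0.05 (95% interval -0.08 to 0.19, adjusted p = 0.798).

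The genes most like EXOC4 over the 12 libraries were not exocyst genes. By Pearson correlation of log2 CPM they were ALG8, a glucosyltransferase of the endoplasmic reticulum (r = 0.973), TXNDC16 (r = 0.972), FLRT3, a membrane protein of cell adhesion (r = 0.960), ATXN10 (r = 0.957) and NAP1L1, a histone chaperone (r = 0.948). In ALG8 the DMSO libraries ranged from 79.0 to 88.3 CPM and the 4SU libraries from 75.6 to 77.6, again with no overlap. The members reached r = 0.53 (EXOC5) at most and -0.05 (EXOC6) at least, and EXOC5 stood at place 2100 in that order. The 12 points share 4 treatments and 2 libraries that stood apart, and the 5 genes are the highest of 17729, so these values are a description.

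**Figure D2:**
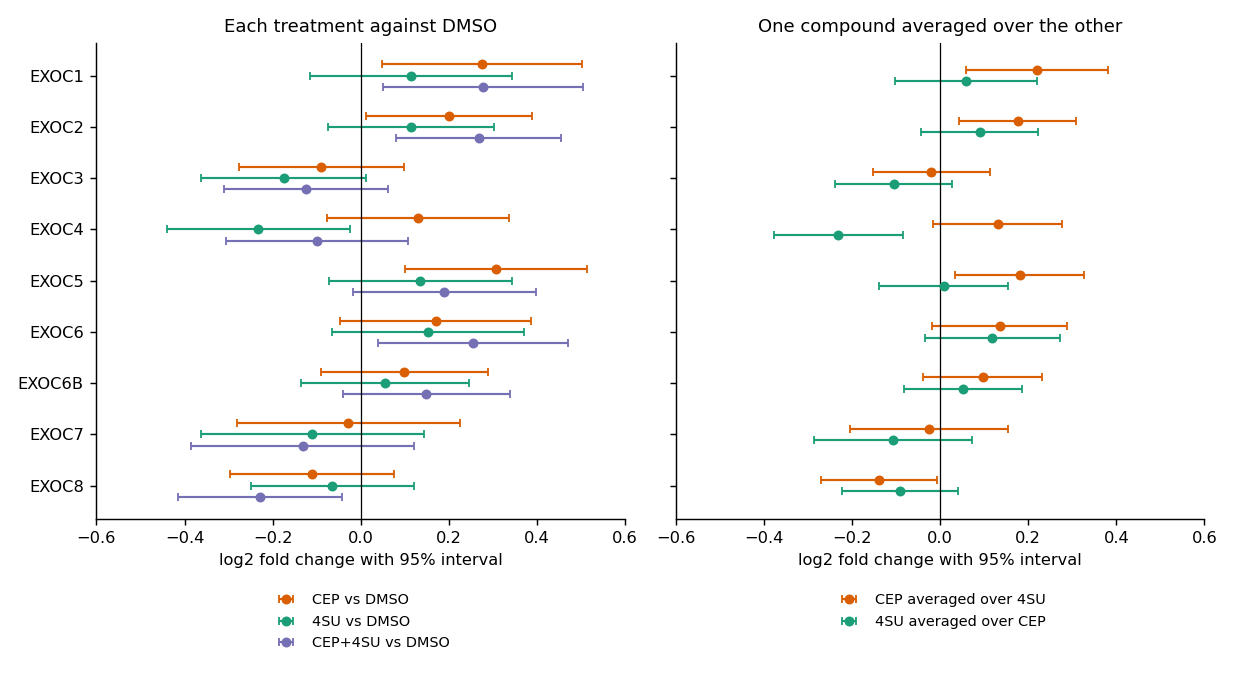
Log2 fold changes (x axis) of the 9 exocyst genes with 95% intervals from the edgeR fit on 12 libraries. Left, each treatment against DMSO; right, CEP averaged over 4SU and 4SU averaged over CEP. EXOC4 with 4SU is the lowest value (-0.23) and EXOC5 with CEP the highest (0.31), and no value passed the adjusted threshold.

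The partners of EXOC4 in its subcomplex are EXOC1, EXOC2 and EXOC3. EXOC1, which binds PIP2 in the plasma membrane, had 45.0, 42.1 and 45.3 CPM in DMSO, 44.7, 60.5 and 55.0 in CEP, 48.0, 50.7 and 44.6 in 4SU and 49.4, 60.1 and 50.9 in CEP+4SU. All 3 CEP+4SU libraries were above DMSO, and CEP replicate 1 lay among the DMSO values. The log2 fold change was 0.27 for CEP (SE 0.11, adjusted p = 0.204) and 0.28 for CEP+4SU (SE 0.11, adjusted p = 0.151). Without CEP replicate 1 the value for CEP was 0.40 and passed the threshold (adjusted p = 0.0344). In that fit 1214 of all genes passed, against 10 with all libraries. Without the 2 libraries that stood apart the values were 0.18 (adjusted p = 0.367) for CEP and 0.19 for CEP+4SU.

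EXOC2, an effector of the Ral GTPases, had 80.7, 82.0 and 77.8 CPM in DMSO, 85.5, 104.9 and 86.1 in CEP, 82.0, 93.6 and 84.7 in 4SU and 90.4, 100.3 and 98.7 in CEP+4SU. Every library with CEP was above every DMSO library. The log2 fold change was 0.20 for CEP (SE 0.09, adjusted p = 0.244) and 0.27 for CEP+4SU (SE 0.09, adjusted p = 0.105), and for CEP+4SU DESeq2 gave 0.27 with an adjusted p of 0.0483. Without the 2 libraries that stood apart the values were 0.10 and 0.24.

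EXOC3 ranged from 53.0 to 57.5 CPM in DMSO, from 51.7 to 52.4 in CEP, from 47.6 to 51.2 in 4SU and from 45.4 to 56.6 in CEP+4SU. CEP and 4SU were each below DMSO without overlap, by small amounts, with log2 fold changes of -0.09 (adjusted p = 0.602) and -0.18 (adjusted p = 0.777). Without the 2 libraries that stood apart the value for CEP was also -0.09. Its antisense neighbour EXOC3-AS1 had 8.52 to 10.3 CPM in DMSO and 5.59 to 6.23 in CEP+4SU, a log2 fold change of -0.63 (SE 0.17, adjusted p = 0.0653).

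The other subcomplex holds EXOC5, EXOC6 or EXOC6B, EXOC7 and EXOC8. EXOC5 had the largest value with CEP. EXOC5 binds the GTPase ARF6. It measured 123.2, 122.3 and 130.7 CPM in DMSO, 142.9, 170.9 and 151.7 in CEP, 122.7, 149.9 and 140.7 in 4SU and 127.8, 165.2 and 136.0 in CEP+4SU. All CEP libraries were above all DMSO libraries, while 4SU and CEP+4SU overlapped DMSO. The log2 fold change for CEP was 0.31 (SE 0.099, 95% interval 0.10 to 0.51), a level 23.7% higher, with an unadjusted p of 0.00595 and an adjusted p of 0.180. Without CEP replicate 1 it was 0.37 and passed the threshold (adjusted p = 0.0418), in a fit where 1214 of all genes passed against 10 as fitted. With no filter on low counts it was 0.30 and also passed (adjusted p = 0.0444). That fit called more genes at large too, and its total degrees of freedom were 285072 against 19.1, so its p-values are smaller by construction. Without the 2 libraries that stood apart the log2 fold change of EXOC5 for CEP was 0.23 (adjusted p = 0.190). AP5M1, which shares bases with it on the other strand, had 57.2 to 60.4 CPM in DMSO and 68.3 to 74.4 in CEP, a log2 fold change of 0.25 (adjusted p = 0.192), and the part of shared reads was not tested.

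EXOC8, an effector of the Ral GTPases like EXOC2, had the lowest value in CEP+4SU. It measured 74.2, 74.1 and 68.9 CPM in DMSO, 60.4, 70.0 and 70.7 in CEP, 66.3, 70.8 and 70.6 in 4SU and 60.1, 67.8 and 57.4 in CEP+4SU. All CEP+4SU libraries were below all DMSO libraries. The log2 fold change was -0.23 for CEP+4SU (SE 0.089, 95% interval -0.41 to -0.04), with an unadjusted p of 0.0183 and an adjusted p of 0.149. SPRTN, a protease for DNA-protein crosslinks that starts opposite EXOC8 and shares 749 bases with it, had 79.6 to 82.2 CPM in DMSO and 91.3 to 95.3 in CEP. Its log2 fold change averaged over 4SU was 0.13 (adjusted p = 0.169), opposite in sign to that of EXOC8, -0.14 (adjusted p = 0.188). Without the 2 libraries that stood apart EXOC8 had -0.30 for CEP+4SU (adjusted p = 0.0944) and -0.19 for CEP averaged.

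EXOC7, which binds PIP2 like EXOC1, was the most variable member in DMSO, with 101.0, 81.1 and 85.0 CPM and a coefficient of variation of 11.9% against 2.70% to 4.49% in the other 8. It ranged from 74.6 to 100.1 CPM in CEP, from 76.1 to 89.9 in 4SU and from 66.8 to 88.5 in CEP+4SU, and every group overlapped DMSO. Its log2 fold changes against DMSO were -0.03, -0.11 and -0.13 for CEP, 4SU and CEP+4SU, with adjusted p-values of 0.920, 0.896 and 0.556. Each rested on single libraries. Without DMSO replicate 1 the values were 0.070, -0.0071 and -0.034, and without the 2 libraries that stood apart those for CEP and CEP+4SU were -0.14 and -0.0071.

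EXOC6 and EXOC6B encode the subunit that binds Rab GTPases on the vesicle. EXOC6 had 40.8, 38.0 and 40.3 CPM in DMSO, 43.2, 42.7 and 47.9 in CEP, 36.4, 48.1 and 47.9 in 4SU and 46.7, 49.1 and 46.2 in CEP+4SU. Both groups with CEP were above DMSO without overlap, whereas the 4SU libraries lay on both sides of it. Its log2 fold change was 0.17 for CEP (adjusted p = 0.375) and 0.25 for CEP+4SU (SE 0.10, adjusted p = 0.168). For EXOC6B the values were 0.10 (adjusted p = 0.571) and 0.15 (adjusted p = 0.351). Without the 2 libraries that stood apart they were 0.20 and 0.23 in EXOC6 and 0.059 and 0.11 in EXOC6B.

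No difference in the balance between the 2 paralogs was detected. The log2 ratio of EXOC6 to EXOC6B FPKM was 0.40 ± 0.071 (SD, n = 3) in DMSO, 0.47 ± 0.19 in CEP, 0.49 ± 0.23 in 4SU and 0.51 ± 0.11 in CEP+4SU. It was positive in 12 of 12 libraries, from 0.23 to 0.69. The difference between libraries with and without CEP was 0.05 (exact permutation test, two-sided, p = 0.635), and between libraries with and without 4SU it was 0.06 (exact permutation test, two-sided, p = 0.50). Both were 0.635 after adjustment over the 2 tests, and the smallest p that the 400 rearrangements allow is 0.005. On raw counts the order of the paralogs was the reverse, because the exons of EXOC6B are longer in total (10197 against 6193 bases).

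As counts over the complex, in CEP against DMSO 3 of 9 members (EXOC1, EXOC2 and EXOC5) had an unadjusted p under 0.05 and were higher, where 9.79% of all genes were, and 0 were lower, where 8.77% were. In CEP+4SU against DMSO 3 (EXOC1, EXOC2 and EXOC6) were higher beside 10.5% of genes, and 1 (EXOC8) was lower beside 10.8%. With CEP averaged over 4SU, 0 of 9 were called beside 0.276% of genes, and DESeq2 also called 0. At an unadjusted p under 0.05, 3 members (EXOC1, EXOC2 and EXOC5) were higher beside 13.5% of genes and 1 (EXOC8) was lower beside 10.8%. Non-overlap with DMSO held for 3 members on the higher side in CEP (EXOC2, EXOC5 and EXOC6) beside 13.5% of genes and for 1 on the lower side (EXOC3) beside 10.1%. In CEP+4SU it held for 3 (EXOC1, EXOC2 and EXOC6) beside 14.1% and for 1 (EXOC8) beside 14.6%. At an adjusted p of at most 0.5, 5 of 9 members passed for CEP beside 44.4% of genes, 0 for 4SU beside 0.107%, 7 for CEP+4SU beside 47.0%, 7 for CEP averaged beside 52.3% and 1 for 4SU averaged beside 20.5%. The median log2 fold change of the 9 was 0.13 for CEP, 0.05 for 4SU and 0.15 for CEP+4SU, while that of all genes tested lay between -0.01 and 0.00. In this design the comparisons share the DMSO libraries. The term for a different effect of CEP with and without 4SU called 0 of 9 members beside 0.0% of genes, in edgeR and in DESeq2, and 0 of 9 had an unadjusted p under 0.05, where 1.29% of genes had a positive and 1.34% a negative term below it. Its values ran from -0.25 (EXOC5) to 0.14 (EXOC3).

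With each treatment, members with a higher GC content in their transcripts tended to have lower log2 fold changes, and so did genes at large. Over the 9 members, GC content and the log2 fold change had a Pearson r of -0.73 for CEP, -0.75 for 4SU and -0.67 for CEP+4SU. The members share libraries, so these are descriptions. Over all genes tested, the median log2 fold change for CEP went from 0.18 in the lowest of 4 equal groups by GC content, at 43.2% or less, to -0.23 in the highest, at 56.9% or more. For 4SU this median went from 0.06 to -0.09 between the same groups. EXOC1, EXOC5, EXOC6 and EXOC6B are in the lowest group, and EXOC3 and EXOC7 in the highest. After a loess trend on GC content was removed from each library, the value for CEP was 0.07 for EXOC1 (adjusted p = 0.865), 0.07 for EXOC5 (adjusted p = 0.801) and -0.05 for EXOC6 (adjusted p = 0.911). EXOC8, at 43.3% GC, also moved down, but from values that were already negative (-0.23 for CEP+4SU and -0.14 for CEP averaged over 4SU). Its value for CEP+4SU became -0.34 (SE 0.065, adjusted p = 0.00942), and for CEP averaged over 4SU it became -0.24 (SE 0.046, adjusted p = 0.0129), so that it passed the threshold in both. Whether the trend is technical was not tested.

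**Figure D3:**
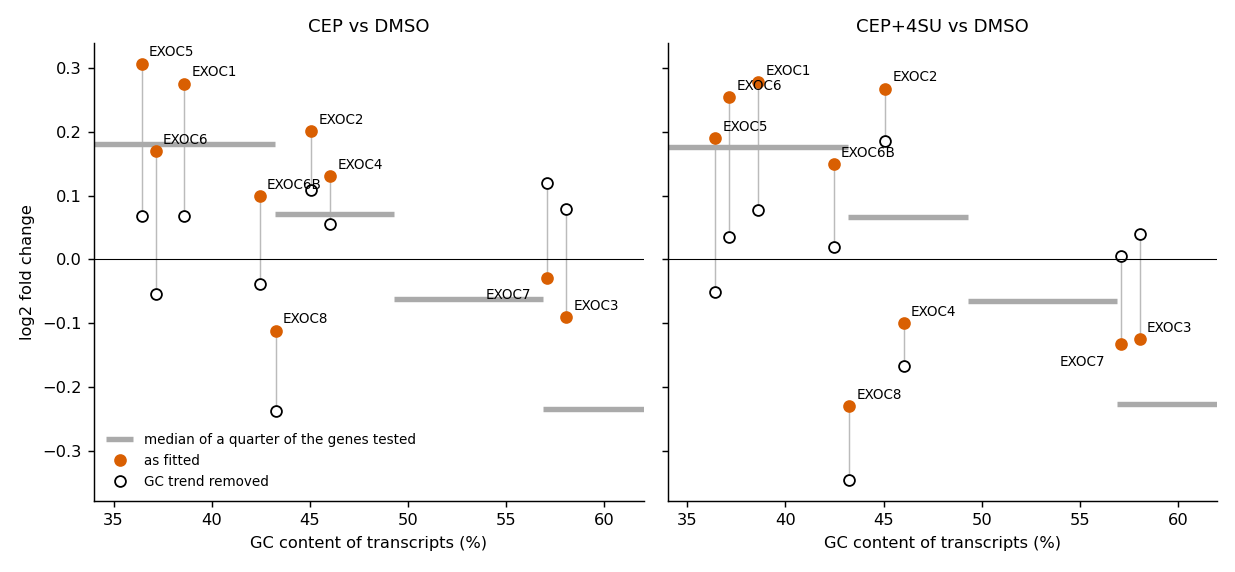
Log2 fold change (y axis) of the 9 exocyst genes against the GC content of their transcripts (x axis), for CEP (left) and CEP+4SU (right) against DMSO. Filled points are the values as fitted, open points those after the GC trend was removed, and grey bars the medians of 4 equal groups of genes by GC content, cut at the axis limits; EXOC8 goes to -0.24 and -0.34 while EXOC5 goes to 0.07 and -0.05.

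Single libraries held the extremes of several members at once. CEP replicate 2 was the highest of 12 for EXOC1, EXOC2, EXOC4 and EXOC5. CEP+4SU replicate 2 was the highest for EXOC6 and EXOC6B and the lowest for EXOC3 and EXOC7. Among the 36 pairs of members, 19 had a positive Pearson r of log2 CPM over the 12 libraries, with a median of 0.05. The closest pairs were EXOC1 with EXOC2 and EXOC1 with EXOC5, both at r = 0.82, and the most opposed was EXOC3 with EXOC6 at r = -0.58. These pairs share the GC trend and the 2 libraries that stood apart.

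The tethering complexes most like the exocyst were read from the same fit. COG and GARP act at the Golgi, NRZ at the endoplasmic reticulum, and HOPS with CORVET at lysosomes and endosomes. Of their 24 genes, all tested, 1 passed the threshold in any comparison in edgeR, in CEP+4SU against DMSO, where 1.64% of all genes did. This was VPS51, a shared subunit of GARP and EARP. It had 94.1, 79.4 and 82.3 CPM in DMSO and 67.3, 44.9 and 64.8 in CEP+4SU, with a log2 fold change of -0.53 (SE 0.13, adjusted p = 0.0495). CEP+4SU replicate 2 held its lowest value, and without that library, without CEP+4SU replicate 3 or without any one of the DMSO libraries the log2 fold change was -0.61 to -0.37 and did not pass (adjusted p = 0.0841 to 0.216). For CEP+4SU the median log2 fold change was 0.11 over the 8 COG genes, -0.01 over the 5 GARP and EARP genes, 0.13 over the 3 NRZ genes and -0.02 over the 8 HOPS and CORVET genes, beside 0.15 over the exocyst. For 4SU averaged over CEP, COG4 had the COG value furthest from 0, -0.22 (SE 0.069, adjusted p = 0.159), close in size to that of EXOC4, and COG3 had 0.18. VPS51 had -0.23, VPS41 of HOPS had -0.16 and VPS39 -0.09, VPS52 had -0.09, and RINT1 and ZW10 of NRZ had 0.06 and 0.01. For CEP averaged over 4SU the genes with the smallest p in their lists were VPS51 (-0.30, adjusted p = 0.0872), VPS50 (0.25, adjusted p = 0.0943), RINT1 (0.20), COG6 (0.18), COG3 (0.14), VPS41 (0.13), NBAS (0.13) and VPS11 (-0.13). DESeq2 called VPS51, COG4 and COG6 in CEP+4SU, where it called 1164 of all genes, and VPS51 and VPS50 for CEP averaged, where it called 1499.

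Of 60 genes that act with the exocyst or resemble EXOC3, 56 were tested and 1 passed the threshold in any comparison in edgeR, again in CEP+4SU beside 1.64% of all genes. This was TBK1, a kinase that RALB and EXOC2 engage in innate immune signalling. It had 42.2, 38.1 and 44.8 CPM in DMSO and 56.1, 61.9 and 56.3 in CEP+4SU, with a log2 fold change of 0.48 (SE 0.094, adjusted p = 0.0262), and all 3 libraries were above all 3 of DMSO. Without any one of the DMSO libraries, or without CEP+4SU replicate 2 or 3, it was 0.42 to 0.53 and did not pass (adjusted p = 0.0630 to 0.124). With the GC trend removed, TBK1 was at 0.28 (adjusted p = 0.0573) and VPS51 at -0.24 (adjusted p = 0.111). For 4SU averaged over CEP, the smallest p among the 12 small GTPases was that of RHOA, at -0.19 (SE 0.047, adjusted p = 0.0750), before ARF6 at -0.10. For CEP averaged over 4SU, RAB11B was at -0.26 (adjusted p = 0.105) and its relative RAB8B at 0.26 (adjusted p = 0.112).

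Among the 14 regulators of these GTPases that were tested, RALGDS, an exchange factor for Ral, had -0.46 (SE 0.14, adjusted p = 0.0852) and RAB11FIP3, an effector of Rab11, had -0.26 (SE 0.075, adjusted p = 0.0760) for CEP averaged over 4SU. RGL2, a further exchange factor for Ral, had -0.24 with 4SU averaged over CEP, and RAB3IP, an exchange factor for Rab8, had 0.18. Among the 13 SNAREs and SNARE regulators tested, STXBP2 had -0.29 (adjusted p = 0.0762) and STXBP3 had 0.22 (adjusted p = 0.0811) for CEP averaged over 4SU. For 4SU averaged over CEP, VAMP2 had 0.19 and STXBP3 0.14. STXBP2 was at -0.58 for CEP against DMSO (adjusted p = 0.127). Its term for a different effect of CEP with and without 4SU was 0.57 (unadjusted p = 0.00289, adjusted p = 0.9998). VAMP2 was at 0.01 for 4SU against DMSO, and its term was 0.36 (adjusted p = 0.9998). In the list of PIP2 and polarity genes, IQGAP1, a scaffold at the cell cortex, had 0.19 with CEP (adjusted p = 0.0731) and -0.15 with 4SU, and TBK1 had 0.27 (adjusted p = 0.0653) and 0.21 (adjusted p = 0.156). Of the 4 relatives of EXOC3, 2 were tested, TNFAIP2 and EXOC3L1, with values of -0.29 and -0.07 for CEP and 0.10 and 0.13 for 4SU. In edgeR none of these averaged values passed the threshold, and their standard errors were 0.047 to 0.31. DESeq2 called 8 of the 56 genes for CEP averaged (IQGAP1, LLGL1, RAB11FIP3, STXBP2, STXBP3, TBK1, RAB11B and RAB3IP), beside 1499 of all genes, and 1, RHOA, for 4SU averaged, beside 336. For CEP+4SU against DMSO it called 7 (LLGL1, RAB11FIP3, STXBP3, TBK1, RAB3IP, RAB8B and RGL2), beside 1164 of all genes. For CEP against DMSO it called 2 (TBK1 and STXBP2), beside 253.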

How the data were processed

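HEK293T RNA-Seq libraries were compared in 4 groups of 3, taken from the treatment in the sample labels. The deposited counts per gene carry no normalization, and the authors' processing notes name HISAT2 2.0.5 for alignment to GRCh38 and featureCounts 1.5.0-p3 for counting. The FPKM values were deposited by the authors per gene length and adjusted library size. A further deposited table of group mean FPKM was not used, and means were computed from the libraries.

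Counts were fitted with edgeR 4.0.16 (R 4.3.3; TMM, filterByExpr with minimum count 10 and minimum total 15, quasi-likelihood F test, all 12 libraries, Benjamini-Hochberg over 17729 genes, threshold 0.05). Alternatives used DESeq2 1.42.0, limma 3.58.1 on log2(FPKM + 1) or log2(FPKM + 0.1), other normalizations and filters, a replicate block, GC correction and libraries left out. The edgeR and DESeq2 steps were tested on simulated data. Depth was 16569114 to 24644734 counts per library, and intervals rest on the spread between libraries. GC content came from GENCODE 29 transcripts, weighted by length. The coding stretches of EXOC6 and EXOC6B were found as open reading frames in those transcripts, and that of EXOC4 from the annotated coding sequence.

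All 9 members were named, and from the other lists the genes past the threshold and those with the smallest p for each compound. The members and lists were chosen with earlier results of these data known.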

Additional observations from a re-analysis of the deposited data

How the results depend on the processing

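Of the 891 values that the alternatives gave for the 9 members in 5 comparisons, 849 kept their sign and side of the threshold, 16 passed it and 26 changed sign, none of the latter past the threshold in either fit. The number of members called, 0 in each comparison, became 1 for CEP against DMSO with no low-count filter, 1 for CEP+4SU against DMSO with DESeq2, 1 there with the GC trend removed, and 1 with the GC trend removed for CEP averaged and for 4SU averaged. It was 1 for 4SU averaged without CEP replicate 2 and CEP+4SU replicate 2. Leaving out single libraries gave 0 to 2 for CEP against DMSO and for CEP averaged, and 0 to 1 for 4SU averaged. With an exception, each of these fits that called a member also called more genes at large than as fitted. For CEP without CEP replicate 1 these were 1214 against 10. The exception was CEP+4SU with the GC trend removed, where EXOC8 was called and fewer genes passed than the 290 as fitted. At an adjusted p of at most 0.5 the number of members was 5 for CEP, 7 for CEP+4SU, 7 for CEP averaged and 1 for 4SU averaged. Of 18 pairs of same-numbered libraries 1 had deviations from the group means that correlated over 0.1 (r from -0.047 to 0.141), so the number was not taken as a pairing. The 6 pairs of treated libraries numbered 1 or 2 were all positive (0.044 to 0.141), and 6 of 12 libraries correlated best with one of their own number. The block raised the calls over all genes from 10 to 780 for CEP, from 290 to 1667 for CEP+4SU and from 49 to 2269 for CEP averaged. With the replicate number as a block the count was 1 for CEP (EXOC5), 1 for CEP+4SU (EXOC2) and 3 for CEP averaged (EXOC1, EXOC2 and EXOC5); the block changed no other call. With no low-count filter the total degrees of freedom of the edgeR fit were 285072 against 19.1, so its p-values are smaller by construction. The cause of the other changes was not tested.

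Sign changes with the GC trend removed gave, for CEP, CEP+4SU and CEP averaged, 0.079, 0.039 and 0.11 in EXOC3 and 0.12, 0.0051 and 0.088 in EXOC7. In EXOC5 the values were -0.051 for CEP+4SU, -0.013 for CEP averaged and -0.038 for 4SU averaged. For CEP and CEP averaged they were -0.054 and -0.043 in EXOC6 and -0.038 and -0.018 in EXOC6B. Without both libraries that stood apart, EXOC3 for CEP averaged was 0.012, EXOC5 for 4SU averaged -0.0077 and EXOC7 for 4SU averaged 0.014. Leaving out single libraries, or both of these, gave -0.076 to 0.017 in EXOC3 and -0.083 to 0.036 in EXOC7 for CEP averaged, -0.048 to 0.052 in EXOC5 for 4SU averaged, -0.14 to 0.073 in EXOC7 for CEP, -0.16 to 0.014 in EXOC7 for 4SU averaged, and -0.019 to 0.10 for the effect of CEP on the log2 ratio of EXOC6 to EXOC6B.

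Summed over the comparisons, DESeq2 made 5 calls against 1 in the other tethering complexes, in 4 genes, and 18 against 1 in the pathway lists, in 11 genes. The fold between the highest and lowest member was 2.35 per longest coding transcript against 3.32. EXOC4 relative to its partners differed with 4SU by -0.28 to -0.20 when single libraries were left out. Over all genes, the number called ranged over the alternatives from 0 to 1214 for CEP (10 as fitted), 0 to 94 for 4SU (1), 0 to 1667 for CEP+4SU (290), 7 to 2269 for CEP averaged (49) and 6 to 658 for 4SU averaged (99).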
